A study of Mus musculus with 10 samples.

Results

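The T cell genes described here encode the signalling subunits of the T cell receptor, the surface receptors that surround it, and the enzymes, adaptors and transcription factors that carry its signal or mark the T cell lineage. They were chosen by name from a list of 36 genes, and 34 were measured among the 18193 genes with a named probe set; Lck and Tcf7 were not analysed here. Each gene is represented by the probe set that was brightest on average. Values are log2 expression levels, and a difference is the baricitinib mean minus the vehicle mean.

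Skin was profiled at week 12 in C3H/HeJ mice that carried a graft, a mouse model of alopecia areata (AA) in which hair loss develops in recipients of skin from affected mice. Baricitinib, which inhibits JAK1 and JAK2, or vehicle alone was given systemically by implanted pump from grafting on, before alopecia was established, so the comparison asks how the skin differed when JAK signalling had been inhibited throughout. There were 5 mice and 5 arrays in each group, both groups carried grafts, the methods describe the recipients as disease-free young adults at grafting, and the labels do not say whether the biopsy was of graft or host skin. Arrays were hybridised once per mouse, and the labels give replicate numbers but no pairing of mice.

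The T cell receptor recognises peptide held by MHC molecules but has no enzyme of its own. Its CD3 chains are phosphorylated by the kinase Lck and then bind the kinase ZAP-70, which phosphorylates the adaptors LAT and SLP-76, and these assemble the enzymes that raise calcium and activate Ras and protein kinase C theta. Surface receptors such as CD28 and CD226 add to the signal, whereas CD5 and the phosphatase encoded by Ptpn22 restrain it. Hair follicles in AA are surrounded by CD8 T cells, and mouse epidermis also holds resident gamma delta T cells that carry CD3 in healthy skin.

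The arrays were not of equal quality. Any pair of 9 arrays correlated with r of 0.946 to 0.994, and vehicle replicate 5 correlated with them at 0.697 to 0.729 and had a compressed distribution, with a log2 SD of 2.28 where the other arrays had 2.71 to 2.79. For the Gapdh and beta-actin controls, the 3' minus 5' signal (the 3'/5' gap), which widens in degraded RNA, was 1.06 ± 0.08 log2 with baricitinib and 2.89 ± 1.40 with vehicle (SD, 5 mice per group, two-sided exact permutation p = 0.0317). Vehicle replicate 4 had a gap of 1.01, within the baricitinib range, and the other vehicle arrays had gaps of 2.0 to 4.35. Spiked control transcripts differed too, at 11.32 ± 0.09 log2 for baricitinib and 11.98 ± 0.76 for vehicle (two-sided exact permutation p = 0.0238), or 11.66 ± 0.29 for vehicle when array 5 was omitted (p = 0.0317). The main counts and the difference of each T cell gene are therefore given with all 10 arrays and without vehicle replicate 5, and the position of vehicle replicate 4 is given for each role group. Keratinocyte markers had a median level of 11.74 to 12.95 log2 on every array, so markers of the labelled tissue were present. Of the T cell receptor constant chain genes looked for, only Tcra had a probe set with no other gene symbol. Tcra was at 2.24 to 2.43 log2 in baricitinib treated skin, 2.29 to 2.57 on vehicle arrays 1 to 4 and 4.62 on vehicle array 5. All these values lie below the median probe set mean of 6.08 log2.

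Most T cell genes had lower means with baricitinib than with vehicle, but none passed the test across all probe sets. Of the 34 genes 31 had a negative difference (91.2%), compared with 55.4% of all 45037 probe sets tested. Their median difference was -0.74 log2, that of all probe sets was -0.07, and single genes ranged from -2.56 for Ikzf3 to 0.61 for Cd7. In limma 0 of the 34 were called in either direction at an adjusted p of 0.05, as were 0.0% of all probe sets, with 0.221 as the smallest adjusted p. The unadjusted p was below 0.05 with a lower baricitinib mean for 14 genes (41.2%) and with a higher one for 0, against 5.62% and 9.21% of all probe sets. For 16 of the 34 genes, Slamf1 and Skap1 among them, the probe set was dim, below the median probe set mean of 6.08 log2. With dim probe sets removed, 18 genes remained, 15 of them with a negative difference (median -0.73, all remaining probe sets 0.23). Of these 18, 5 were lower and 0 higher at an unadjusted p of 0.05. Of all 22518 remaining probe sets, 4054 reached that p in either direction, and how many of them were lower was not counted. The filter used the mean over both groups. It therefore kept Ikzf3, whose baricitinib mean of 5.81 lay below 6.08 and whose vehicle mean was 8.37. In whole skin, fewer T cells and less of these transcripts per T cell cannot be told apart.

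Without vehicle replicate 5 the median difference was similar, while single genes shifted more, such as Cd3d from -0.79 to -1.44 and Sh2d1a from -1.26 to -0.19. A negative difference was found for 32 of 34 genes (94.1%, all probe sets 54.9%), with a median of -0.78 (all probe sets -0.04). Again 0 passed the adjusted threshold (all probe sets 0.0%), the smallest adjusted p was 0.0733, and at an unadjusted p of 0.05, 21 genes (61.8%) were lower and 0 higher, against 13.5% and 14.4% of all probe sets. With all arrays 0 genes had every baricitinib array below every vehicle array (all probe sets 2.03%). Without vehicle replicate 5 there were 6 (17.6%, all probe sets 4.11%), namely Cd5, Cd6, Cd28, Lat, Themis and Ikzf3.

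**Figure D1:**
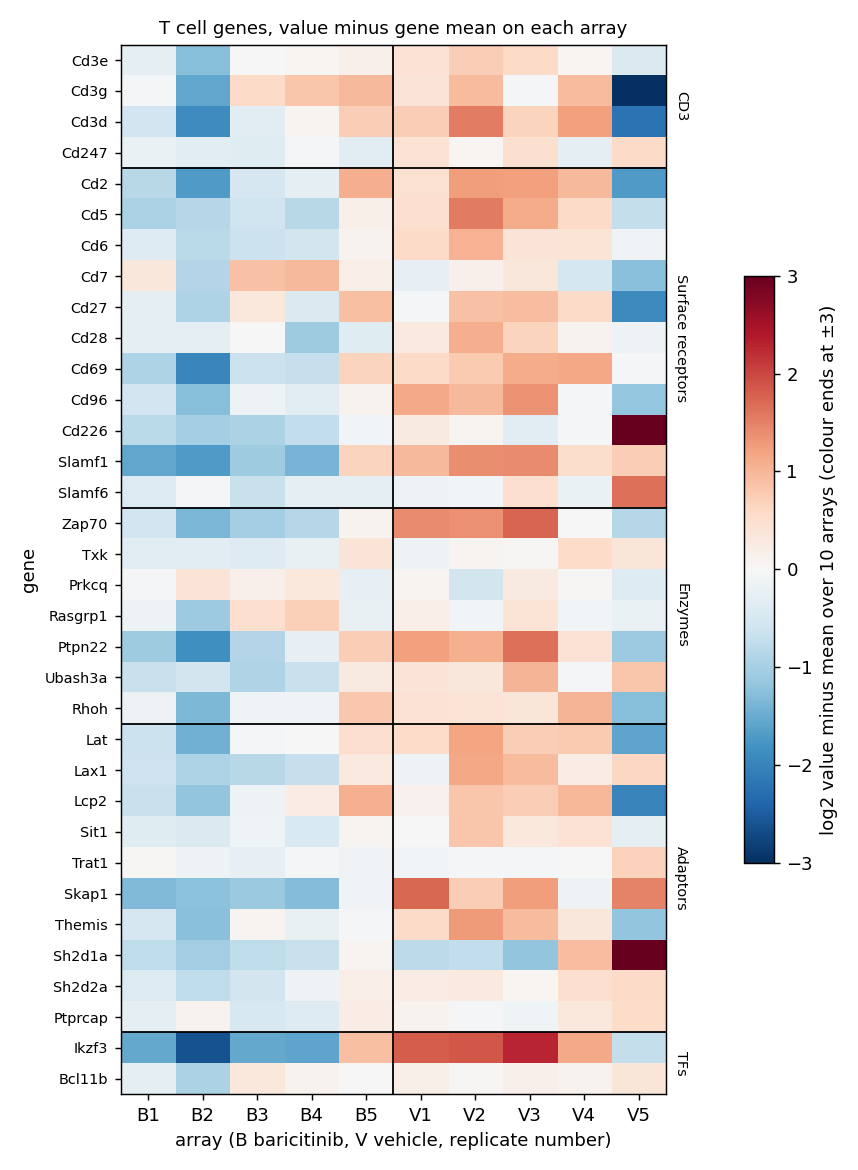
Level of each of the 34 T cell genes (vertical axis, ordered by role, TFs standing for transcription factors) on each array (horizontal axis, B1 to B5 baricitinib and V1 to V5 vehicle), after subtracting each gene's own 10-array mean in log2, with colours ending at 3 log2 in either direction. Most genes are below their mean on B1 to B4 and above it on V1 to V4, with B5 often on the vehicle side and V5 scattered in both directions.

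Single arrays differed within both groups, and with 1 array per mouse, mouse and array cannot be told apart. The median level of the 34 genes was 5.82, 5.40, 5.92, 5.79 and 6.68 log2 in baricitinib replicates 1 to 5 and 7.29, 7.54, 7.52, 6.94 and 6.35 in vehicle replicates 1 to 5. Baricitinib replicate 5 thus lay above the other baricitinib arrays, and vehicle replicate 5 lay below it. Baricitinib replicate 5 was the highest of its group for 25 of the 34 genes (73.5%), compared with 18.0% of all probe sets, and it reached the lowest of vehicle replicates 1 to 4 for 23 genes. Baricitinib replicate 2 was the lowest of its group for 23 genes. Vehicle replicate 4, whose 3'/5' gap was like that of the baricitinib arrays, had a median of 6.94, above all 5 baricitinib arrays, and exceeded every baricitinib array for 15 genes (44.1%, all probe sets 19.1%). Vehicle replicate 5 fell outside the range of the other 9 arrays for 14 genes, above it for 8 and below it for 6 (41.2%, all probe sets 72.9%).

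Single arrays also decided the calls. Without baricitinib replicate 5, 10 genes had groups that did not overlap (29.4%, all probe sets 3.39%) and 1 gene, Slamf1, passed the threshold in limma (difference -2.44, adjusted p = 0.0292), where 0.0178% of all probe sets were called lower. Without vehicle replicate 4, Skap1 passed alone among the 34 (difference -2.31, adjusted p = 0.0355), while 0.568% of all probe sets were called lower. Leaving out any other single array called 0 of the 34. Array weights estimated in limma from each array's residual spread called 21 of the 34 lower (all probe sets 10.6%), or 19 without vehicle replicate 5 (8.69%). With all arrays these weights were 0.0289 for vehicle replicate 5, 0.498 for vehicle replicate 4 and 5.43 for baricitinib replicate 1. The rest had 1.09 to 2.05. The arrays with the widest 3'/5' gaps, vehicle replicates 3 (4.35), 5 (4.06) and 1 (3.03), had weights of 1.09, 0.0289 and 1.22. Vehicle replicate 4, with 0.498, had a gap of 1.01. How the weights relate to the gap was not tested. With the 3'/5' gap as a covariate the median difference was -0.91, 31 of 34 genes were negative, 0 passed, and 8 were lower at an unadjusted p of 0.05 (0.799%). With the replicate number as a block and replicate 5 of both groups out, 9 were called lower (1.39%).

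**Figure D2:**
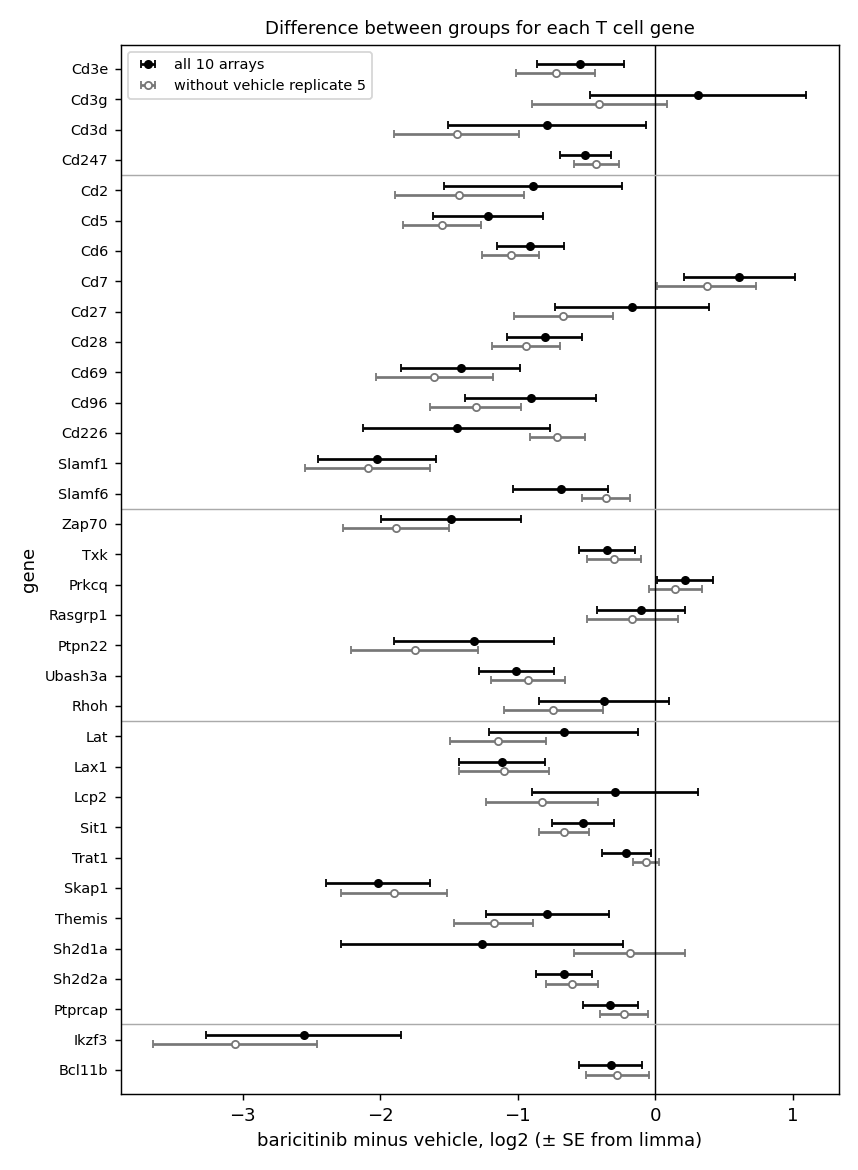
Difference between baricitinib treated and vehicle control skin for each T cell gene in log2 (horizontal axis, bars are the standard error from limma), from the full set of 10 (filled) or with vehicle replicate 5 omitted (open), genes grouped by role. Points lie left of 0 for 31 of 34 genes with all arrays and 32 without vehicle replicate 5.

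CD3 signalling subunits. The 4 genes encode the CD3 epsilon, gamma and delta chains and the zeta chain (Cd247), whose cytoplasmic motifs are phosphorylated when the receptor is engaged. Their differences had a median of -0.53, or -0.58 without vehicle replicate 5, and 3 of 4 were negative. The gene group did not separate the treatments: its median level on baricitinib replicate 5 (9.29) lay within the span of vehicle replicates 1 to 4 (8.76 to 9.69), as did that of baricitinib replicate 4 (8.91). Vehicle replicate 4 (9.54) was above all 5 baricitinib arrays.

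Cd3g, Cd3d and Cd3e lie close together on mouse chromosome 9, and the starts of Cd3g and Cd3d point away from each other at a distance of 1355 bases. The promoter windows of these genes are shown because they are neighbours yet Cd3g gave a difference of the opposite sign when all arrays were used. Sequences are from RefSeq on GRCm38.p6, from before to just after the annotated start, 5' to 3' on the gene's strand, and capitals mark matches on either strand to the core bound by ETS factors, AGGAAG, by GATA factors, AGATAA, by TCF factors, CTTTGA, or by RUNX factors, TGTGGT.
Cd3g (chr9:44980382-44980681, minus strand): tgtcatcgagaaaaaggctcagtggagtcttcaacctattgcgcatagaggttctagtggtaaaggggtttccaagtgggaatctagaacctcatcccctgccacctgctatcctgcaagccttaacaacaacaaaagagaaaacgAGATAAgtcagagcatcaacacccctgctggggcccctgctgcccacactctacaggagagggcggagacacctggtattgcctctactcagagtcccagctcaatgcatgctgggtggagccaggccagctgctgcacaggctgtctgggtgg
Cd3d (chr9:44981536-44981835, plus strand): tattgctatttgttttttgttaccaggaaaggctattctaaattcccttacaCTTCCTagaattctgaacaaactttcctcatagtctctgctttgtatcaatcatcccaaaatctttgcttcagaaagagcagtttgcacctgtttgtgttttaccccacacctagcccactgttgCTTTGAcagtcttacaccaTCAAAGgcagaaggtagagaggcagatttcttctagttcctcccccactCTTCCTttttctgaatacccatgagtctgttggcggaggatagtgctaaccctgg
Cd3e (chr9:45009562-45009861, minus strand): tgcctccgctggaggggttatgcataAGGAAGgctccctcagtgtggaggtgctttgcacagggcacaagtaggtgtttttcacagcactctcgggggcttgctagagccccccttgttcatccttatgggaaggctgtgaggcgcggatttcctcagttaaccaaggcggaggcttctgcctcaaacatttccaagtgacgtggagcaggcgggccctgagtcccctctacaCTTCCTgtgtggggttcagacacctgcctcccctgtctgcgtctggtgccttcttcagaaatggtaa

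Cd3g held 1 match, to the GATA letters. Cd3d held 2 ETS and 2 TCF matches, and Cd3e held 2 ETS matches. AGGAAG can run into AGATAA by shared letters, but no matches overlapped in the windows shown. The promoter table covered 23 of the 34 genes. Over these, AGGAAG was present in 14 (60.9%, against 35.1% of 27025 promoters), CTTTGA in 9 (39.1%, against 16.2%), AGATAA in 4 (17.4%, against 11.4%) and TGTGGT in 4 (17.4%, against 16.9%). A match describes these letters alone, and binding was not measured.

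Cd3e was at 10.24, 9.25, 10.53, 10.58 and 10.67 log2 in baricitinib replicates 1 to 5 and at 10.96, 11.27, 11.09, 10.58 and 10.08 in vehicle replicates 1 to 5. Baricitinib replicate 2 and vehicle replicate 5 were the lowest of their groups, and vehicle replicates 4 and 5 lay within the baricitinib span. The means were 10.25 ± 0.58 for baricitinib and 10.80 ± 0.47 for vehicle (SD, n = 5), with a group difference of -0.54 ± 0.32 (SE, limma adjusted p = 0.414), and -0.72 ± 0.29 without vehicle replicate 5 (adjusted p = 0.145).

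Cd3d was at 7.21, 5.90, 7.45, 7.87 and 8.52 in baricitinib and 8.52, 9.32, 8.46, 9.02 and 5.57 in vehicle control skin. Baricitinib replicate 5 reached the lower end of vehicle replicates 1 to 4, and vehicle replicate 5 was the lowest of all 10. This gave a group difference of -0.79 ± 0.72 (SE, limma adjusted p = 0.528), and -1.44 ± 0.45 without vehicle replicate 5 (adjusted p = 0.0997).

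Cd3g was at 9.06, 7.55, 9.68, 9.95 and 10.07 in baricitinib and 9.50, 10.05, 9.06, 10.06 and 6.08 in vehicle control skin. Here 4 baricitinib arrays lay within or beside the span of vehicle replicates 1 to 4, and vehicle replicate 5 again stood far below. With all arrays the difference was 0.31 ± 0.78 (SE, limma adjusted p = 0.818), and it turned to -0.41 ± 0.49 without vehicle replicate 5 (adjusted p = 0.599).

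Cd247 was at 5.55, 5.41, 5.39, 5.69 and 5.44 in baricitinib and 6.19, 5.80, 6.22, 5.48 and 6.32 in vehicle control skin, and vehicle replicate 4 was the one vehicle array inside the baricitinib span. The difference was -0.51 ± 0.19 (SE, limma adjusted p = 0.28) and -0.43 without vehicle replicate 5. The direction of Cd247 depended on the probe set. A second one with almost the same mean (5.72 against 5.75 log2) gave 0.43, and the dimmer ones gave -0.06 and -0.03. The chosen probe set owed its rank to vehicle replicate 5, at 6.32 on it and 4.10 on the second. Without that array the second gave 0.08 and the dimmer ones gave 0.33 and -0.008.

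**Figure D3:**
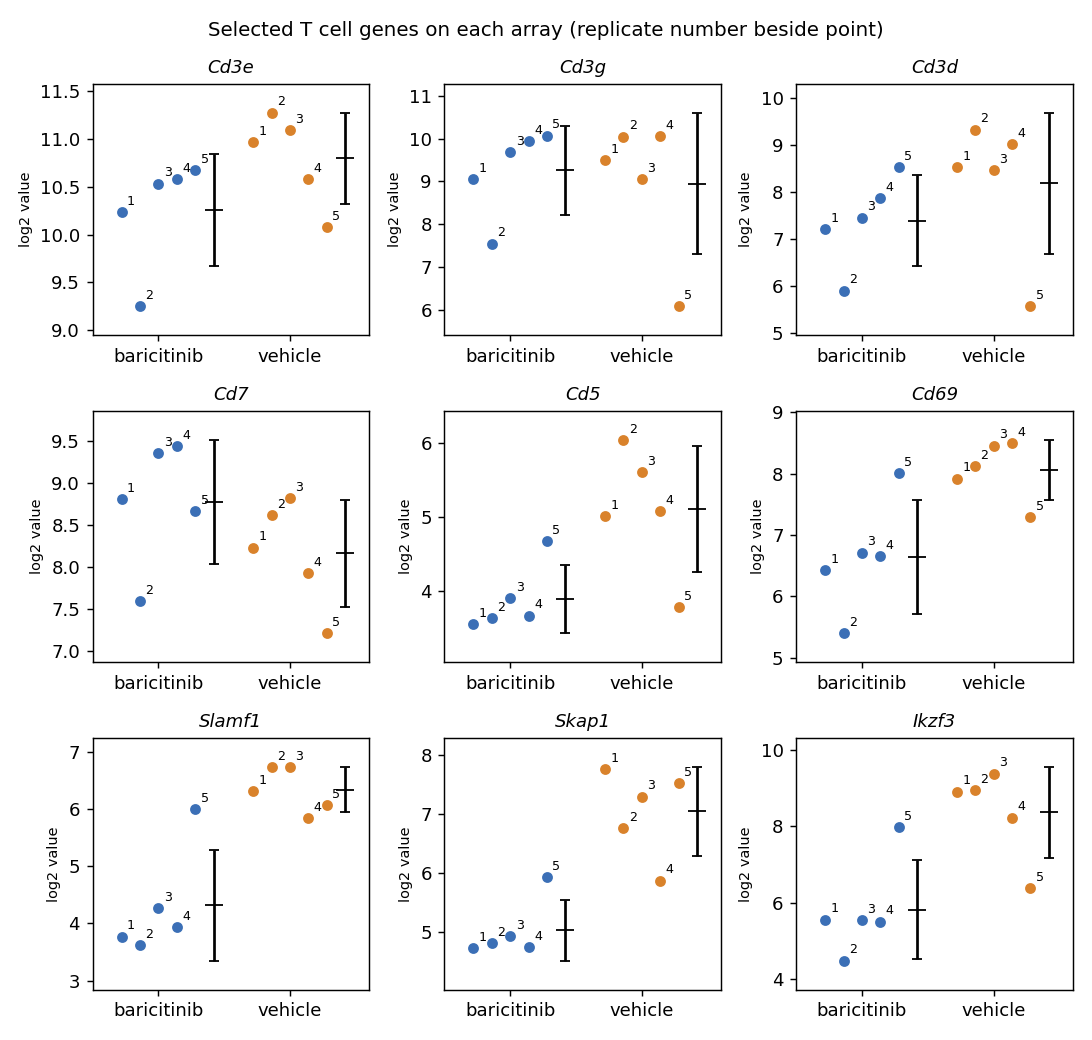
Log2 level of 9 T cell genes on each array (points, replicate number beside each, baricitinib blue and vehicle orange), with the mean and SD of each group of 5 as black bars. Baricitinib replicate 5 is the highest of its group in every panel but that of Cd7, and vehicle replicate 5 is far below vehicle replicates 1 to 4 for Cd3g, Cd3d, Cd5 and Ikzf3 but not for Slamf1 or Skap1.

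Surface receptors. Of the 11 adhesion, costimulatory and other surface receptor genes 10 had a negative difference (median -0.91, without vehicle replicate 5 -1.05), and 5 were lower at an unadjusted p of 0.05, or 8 without that array (all probe sets 5.62% and 13.5%). Their median level was 5.13 to 6.08 log2 in baricitinib treated skin and 6.29 to 6.74 in vehicle replicates 1 to 4. Vehicle replicate 4 (6.29) was above all 5 baricitinib arrays, and vehicle replicate 5 (6.07) was level with baricitinib replicate 5 (6.08).

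Slamf1 encodes a receptor of the SLAM family that binds itself on neighbouring lymphocytes. It was at 3.77, 3.63, 4.27, 3.93 and 6.0 in baricitinib replicates 1 to 5 and 6.31, 6.74, 6.74, 5.85 and 6.07 in vehicle replicates 1 to 5. All vehicle arrays lay above baricitinib replicates 1 to 4, and baricitinib replicate 5 lay among them. The means were 4.32 ± 0.97 for baricitinib and 6.34 ± 0.40 for vehicle (SD, n = 5), with a group difference of -2.02 ± 0.43 (SE, limma adjusted p = 0.221), and -2.09 ± 0.46 without vehicle replicate 5 (adjusted p = 0.0733).

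Cd69, an early activation marker that holds T cells in tissue, was at 6.43, 5.40, 6.72, 6.66 and 8.01 in baricitinib and 7.92, 8.12, 8.45, 8.50 and 7.29 in vehicle control skin. Baricitinib replicate 5 was the only array of its group that reached the vehicle span. This corresponded to a group difference of -1.41 ± 0.43 (SE, limma adjusted p = 0.238), and -1.61 ± 0.42 without vehicle replicate 5 (adjusted p = 0.0821).

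Cd5 restrains T cell receptor signalling. Its level was 3.56, 3.64, 3.90, 3.67 and 4.68 in baricitinib and 5.01, 6.05, 5.61, 5.08 and 3.79 in vehicle control skin, so vehicle replicates 1 to 4 were all above the 5 baricitinib arrays and vehicle replicate 5 was among them. The result was a group difference of -1.22 ± 0.40 (SE, limma adjusted p = 0.252), and -1.55 ± 0.28 without vehicle replicate 5 (adjusted p = 0.0733).

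The promoter windows of Slamf1 and Cd5 are shown as those of the surface receptors with the largest differences for which a window was in the table, a choice made after the values were seen. Each held 2 matches to AGGAAG or its reverse complement and none to the other motifs.
Slamf1 (chr1:171766882-171767181, plus strand): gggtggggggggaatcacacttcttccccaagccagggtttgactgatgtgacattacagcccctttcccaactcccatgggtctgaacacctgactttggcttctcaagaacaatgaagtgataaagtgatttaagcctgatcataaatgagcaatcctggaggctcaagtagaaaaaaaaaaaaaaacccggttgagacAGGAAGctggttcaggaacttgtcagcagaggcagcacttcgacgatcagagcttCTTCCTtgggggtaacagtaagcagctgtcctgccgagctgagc
Cd5 (chr19:10738925-10739224, minus strand): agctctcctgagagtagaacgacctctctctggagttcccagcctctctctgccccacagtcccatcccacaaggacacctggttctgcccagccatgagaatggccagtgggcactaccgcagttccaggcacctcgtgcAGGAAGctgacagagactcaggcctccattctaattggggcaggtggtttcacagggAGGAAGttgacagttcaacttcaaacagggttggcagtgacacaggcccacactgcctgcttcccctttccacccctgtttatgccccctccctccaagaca

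Cd226, an activating receptor for nectin family ligands, was at 2.48, 2.26, 2.32, 2.55 and 3.20 in baricitinib and 3.54, 3.37, 2.97, 3.21 and 6.93 in vehicle control skin. Vehicle replicate 5 exceeded every other array by several log2 units and carried much of the difference, which was -1.44 ± 0.68 (SE, limma adjusted p = 0.35) with it and -0.71 ± 0.20 without it (adjusted p = 0.0869). Its counterpart Cd96, which shares a ligand with it, had a difference of -0.91, or -1.31 without that array.

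The costimulatory receptor Cd28 differed by -0.81 (-0.94 without vehicle replicate 5) and Cd27, a costimulator of the TNF receptor family, by -0.17 (-0.67). The Cd27 difference turned positive when baricitinib replicate 2 (0.04), vehicle replicate 2 (0.03) or vehicle replicate 3 (0.04) was left out. The adhesion receptor Cd2 differed by -0.89 (-1.43), the Cd5 relative Cd6 by -0.91 (-1.05) and the SLAM family receptor Slamf6 by -0.69 (-0.36). The probe sets of Slamf6 had nearly equal means (5.0, 4.93 and 4.89 log2), and the brightest owed its rank to vehicle replicate 5 (6.66). The next, with baricitinib arrays at 3.39 to 5.60 and vehicle replicates 1 to 4 at 5.66 to 7.58, gave -1.92, or -2.52 without vehicle replicate 5, and the third gave -0.82, or -1.03. Without vehicle replicate 5 all 5 baricitinib arrays were below all 4 vehicle arrays for Cd28 and Cd6.

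Cd7 was the exception among the surface receptors. It was at 8.81, 7.60, 9.36, 9.44 and 8.67 in baricitinib and 8.23, 8.62, 8.82, 7.93 and 7.21 in vehicle control skin, with baricitinib replicates 3 and 4 the highest of the 10 arrays and the other baricitinib arrays within the vehicle span. The difference was 0.61 ± 0.40 (SE, limma adjusted p = 0.443) and 0.37 ± 0.36 without vehicle replicate 5 (adjusted p = 0.508).

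Kinases and other signalling enzymes. Of 7 genes 6 had a negative difference (median -0.37, without vehicle replicate 5 -0.74), and 3 were lower at an unadjusted p of 0.05 with or without that array (all probe sets 5.62% and 13.5%). These were Zap70, Ptpn22 and Ubash3a in both cases. The median level was 6.29 to 7.90 in baricitinib treated skin and 7.82 to 9.12 in vehicle replicates 1 to 4. Vehicle replicate 4 (7.82) was below baricitinib replicate 5 (7.90) and above the other baricitinib arrays.

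Zap70, the kinase that binds phosphorylated CD3 and zeta chains, was at 7.21, 6.42, 6.78, 6.94 and 7.90 in baricitinib and 9.21, 9.18, 9.54, 7.82 and 6.93 in vehicle control skin. Vehicle replicates 1 to 3 stood above all other arrays, vehicle replicate 4 was just below baricitinib replicate 5, and vehicle replicate 5 was inside the baricitinib span. This gave a group difference of -1.48 ± 0.51 (SE, limma adjusted p = 0.264), and -1.88 ± 0.38 without vehicle replicate 5 (adjusted p = 0.0733), and its other probe sets gave -0.65 and -0.55.

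Ptpn22, a phosphatase that restrains the proximal kinases, was at 7.05, 6.29, 7.25, 7.89 and 8.86 in baricitinib and 9.35, 9.18, 9.77, 8.56 and 7.04 in vehicle control skin. Its order of arrays resembled that of Zap70, with baricitinib replicate 5 above vehicle replicate 4. The result was a group difference of -1.32 ± 0.58 (SE, limma adjusted p = 0.332), and -1.75 ± 0.46 without vehicle replicate 5 (adjusted p = 0.0824).

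Ubash3a, which encodes an inhibitor of receptor signalling, was at 4.90, 5.02, 4.67, 4.91 and 5.83 in baricitinib and 5.96, 5.92, 6.59, 5.50 and 6.41 in vehicle control skin, with only baricitinib replicate 5 above the lowest vehicle array. It showed a group difference of -1.01 ± 0.27 (SE, limma adjusted p = 0.227), and -0.93 ± 0.27 without vehicle replicate 5 (adjusted p = 0.0884).

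Rhoh, an atypical GTPase that helps to bring ZAP-70 to the receptor, was at 5.56, 4.41, 5.63, 5.65 and 6.56 in baricitinib and 6.18, 6.16, 6.12, 6.76 and 4.46 in vehicle control skin, with the lowest values on baricitinib replicate 2 and vehicle replicate 5. The difference was -0.37 ± 0.47 (SE, limma adjusted p = 0.639), or -0.74 without vehicle replicate 5. The Tec family kinase Txk differed by -0.35 (-0.30). Prkcq, which encodes protein kinase C theta and is also expressed in skeletal muscle, differed by 0.22 (0.15), and by -0.10 after cyclic loess normalisation. The Ras activator Rasgrp1 differed by -0.10 (-0.17), its probe sets differed in sign, and the value became 0.16 without baricitinib replicate 2.

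Adaptor proteins. All 10 adaptor genes had a negative difference (median -0.67, without vehicle replicate 5 -0.74), with 4 lower at an unadjusted p of 0.05, or 6 without that array (all probe sets 5.62% and 13.5%). Their median level was 5.18 to 6.22 in baricitinib treated skin and 6.33 to 6.80 in vehicle replicates 1 to 4, and vehicle replicate 4 (6.33) was above all baricitinib arrays.

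Skap1, an adaptor that links the receptor to integrin activation, was at 4.72, 4.81, 4.93, 4.74 and 5.93 in baricitinib and 7.76, 6.76, 7.29, 5.87 and 7.52 in vehicle control skin. Only baricitinib replicate 5 reached the vehicle span, where it exceeded vehicle replicate 4 alone, and vehicle replicate 5 was among the higher vehicle arrays. The means were 5.02 ± 0.51 for baricitinib and 7.04 ± 0.75 for vehicle (SD, n = 5), with a group difference of -2.02 ± 0.38 (SE, limma adjusted p = 0.221), and -1.90 ± 0.39 without vehicle replicate 5 (adjusted p = 0.0733). All 3 probe sets of Skap1 had a negative difference.

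Lax1, an inhibitory adaptor related to LAT, was at 6.76, 6.44, 6.53, 6.68 and 7.66 in baricitinib and 7.21, 8.54, 8.32, 7.58 and 7.99 in vehicle control skin. Vehicle replicates 1 and 4 were below baricitinib replicate 5 but above the other baricitinib arrays. It showed a group difference of -1.11 ± 0.31 (SE, limma adjusted p = 0.229), and -1.10 ± 0.32 without vehicle replicate 5 (adjusted p = 0.0914).

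Themis, which tunes receptor signalling during T cell selection, was at 6.29, 5.55, 6.87, 6.56 and 6.74 in baricitinib and 7.37, 8.07, 7.75, 7.12 and 5.62 in vehicle control skin. Vehicle replicates 1 to 4 were above all 5 baricitinib arrays and vehicle replicate 5 was close to the lowest of them. The result was a group difference of -0.78 ± 0.44 (SE, limma adjusted p = 0.403), and -1.18 ± 0.29 without vehicle replicate 5 (adjusted p = 0.0763).

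Sh2d1a encodes SAP, the adaptor of SLAM family receptors. Its level was 4.10, 3.82, 4.08, 4.20 and 4.93 in baricitinib and 4.07, 4.11, 3.67, 5.79 and 9.79 in vehicle control skin, so that vehicle replicates 1 to 3 lay near the baricitinib arrays, vehicle replicate 4 was higher and vehicle replicate 5 was far above. The difference of -1.26 ± 1.03 (SE, limma adjusted p = 0.499) became -0.19 ± 0.40 without that array (adjusted p = 0.78).

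The scaffold Lat differed by -0.67, or -1.15 without vehicle replicate 5, when the groups no longer overlapped. Lcp2, which encodes its partner SLP-76, differed by -0.29 (-0.82). Sit1 and Trat1, transmembrane adaptors of the receptor, differed by -0.53 (-0.66) and -0.21 (-0.07). The values were -0.66 (-0.61) for the Lck-binding adaptor gene Sh2d2a and -0.33 (-0.23) for Ptprcap, whose product associates with CD45.

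Transcription factors. Ikzf3, which encodes the lymphoid factor Aiolos of both T and B cells, had the largest difference of the 34 genes. The median level of Ikzf3 and Bcl11b on vehicle replicate 4 (10.01) was above that on all 5 baricitinib arrays (7.62 to 9.83). Ikzf3 was at 5.56, 4.48, 5.55, 5.50 and 7.98 in baricitinib and 8.91, 8.95, 9.39, 8.23 and 6.38 in vehicle control skin. Baricitinib replicates 1 to 4 were below every vehicle array, baricitinib replicate 5 was just below vehicle replicate 4, and vehicle replicate 5 lay between. The means were 5.81 ± 1.30 for baricitinib and 8.37 ± 1.19 for vehicle (SD, n = 5), with a group difference of -2.56 ± 0.71 (SE, limma adjusted p = 0.227), and -3.05 ± 0.59 without vehicle replicate 5 (adjusted p = 0.0733). Its dimmer probe sets gave smaller differences of -0.46 each, and for the brighter of these every baricitinib array (3.73 to 4.31) was below every vehicle array (4.53 to 4.63).

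Bcl11b commits progenitors to the T cell lineage and is also expressed by keratinocytes. It was at 11.41, 10.76, 12.01, 11.82 and 11.69 in baricitinib and 11.87, 11.74, 11.84, 11.79 and 12.05 in vehicle control skin, with baricitinib replicate 2 the one low array. The difference was -0.32 ± 0.23 (SE, limma adjusted p = 0.465) and -0.27 without vehicle replicate 5. Its other probe sets gave 0.64, 0.40 and -0.004, and the mean of all 4 gave 0.18, so the sign for Bcl11b rested on the probe set chosen.

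Several probe sets were available for 14 of the 34 genes. All of a gene's probe sets had negative differences for 11 of them, 0 genes had positive differences throughout, and 3 were mixed, namely Bcl11b, Cd247 and Rasgrp1. These counts were the same without vehicle replicate 5.

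**Figure D4:**
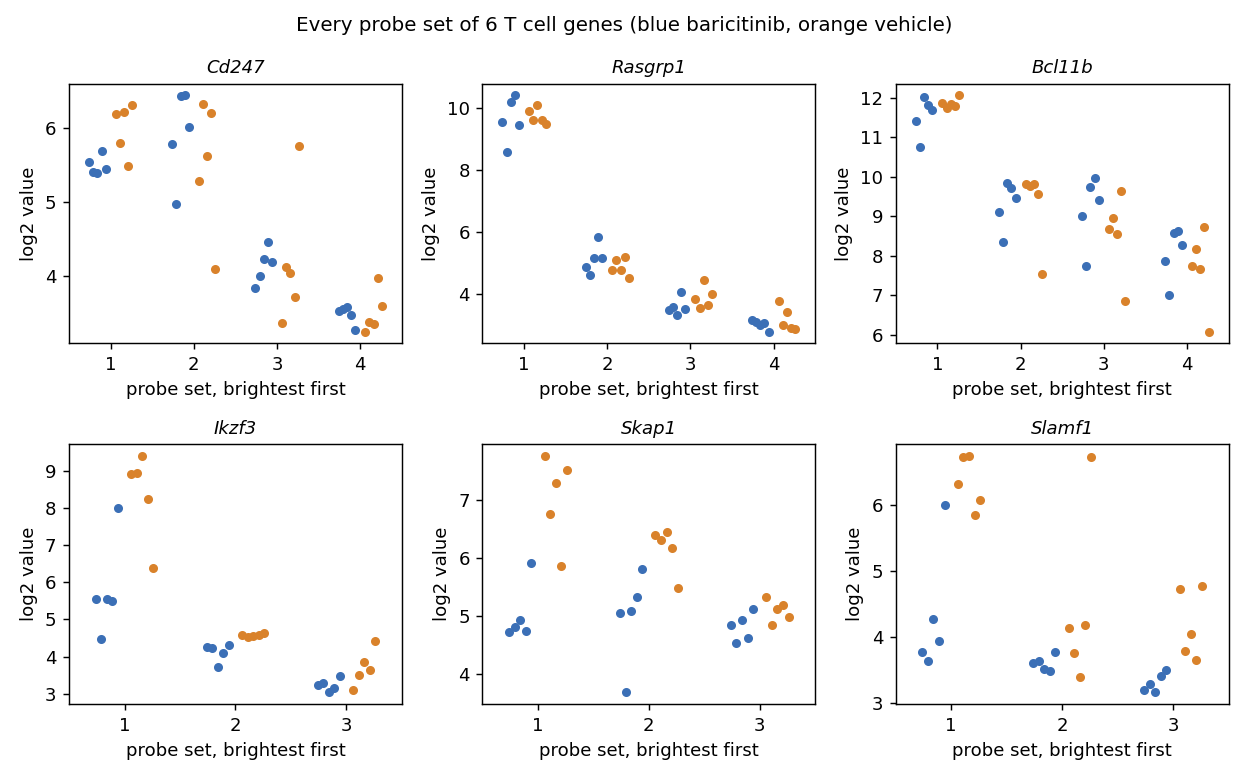
Log2 level on each array of every probe set of 6 T cell genes (horizontal axis, brightest first, baricitinib blue and vehicle orange, replicates 1 to 5 from left to right). The probe sets of Cd247, Rasgrp1 and Bcl11b disagree in the sign of the difference, and those of Ikzf3, Skap1 and Slamf1 all have lower baricitinib means.

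Other genes of the pathway, many of them also used by other cells of the skin, had differences of both signs. Of 28 further signalling genes and Tcra, 13 had a negative and 16 a positive difference (median 0.02), and without vehicle replicate 5 there were 17 and 12 (median -0.19). At the adjusted threshold 0 passed in either direction, and at an unadjusted p of 0.05, 3 were lower and 1 was higher, or 11 and 3 without that array (all probe sets 5.62% and 9.21%, or 13.5% and 14.4%). With the 3'/5' gap as a covariate 23 were negative and 6 positive (median -0.26), and with array weights 18 and 11 (median -0.27). Their difference from the 34 genes was not tested.

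Ptprc, which encodes the leukocyte phosphatase CD45, was at 10.04, 9.24, 10.42, 9.98 and 10.76 in baricitinib and 11.09, 11.30, 11.82, 10.81 and 10.80 in vehicle control skin, every baricitinib array being below every vehicle array (all probe sets 2.03%). It showed a group difference of -1.08 ± 0.30 (SE, limma adjusted p = 0.229), and -1.17 ± 0.31 without vehicle replicate 5 (adjusted p = 0.0818). With all arrays the other pathway genes with the largest differences were positive: the transcription factor gene Nfatc1 at 1.14 (0.80 without vehicle replicate 5), the phosphatase gene Ptpn6 at 1.06 (0.18) and the signalling adaptor gene Bcl10 at 1.04 (0.37). Vehicle replicate 5 was at 3.49 for Ptpn6 and 7.65 for Bcl10, far below all other arrays. When the 3'/5' gap was entered as a covariate the differences of Ptpn6 and Bcl10 turned to -0.57 and -0.29. Without vehicle replicate 5 the largest differences after Ptprc and beside Nfatc1 were negative, at -0.88 for the exchange factor gene Vav1 and -0.69 for Arhgap15, which were named after their values were seen.

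Markers of B cells and NK cells had negative differences like those of most T cell genes. All 8 B cell markers had a negative difference (median -0.92, without vehicle replicate 5 -0.83), against 55.4% of all probe sets, or 54.9% without that array. Their summed level was 8.45 to 10.34 log2 with baricitinib and 9.46 to 11.19 with vehicle, with Ms4a1, which encodes CD20, at -1.58 (-0.91). All 5 NK and innate lymphoid markers were likewise negative (median -0.67, or -0.87), with summed levels of 7.0 to 9.45 and 8.46 to 10.13 and the NK receptor gene Klrd1 at -1.94 (-2.25). As for the T cell genes, baricitinib replicate 5 had the highest summed level of its group for the B cell (10.34) and NK (9.45) markers. The same held for macrophage markers (14.16) and the other pathway genes (14.92), but not for mast cell, skeletal muscle, keratinocyte or fibroblast markers.

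Mast cell markers had mostly positive differences, 7 of 8 (median 1.06, or 0.73 without vehicle replicate 5). Their summed level was 11.40 to 12.87 with baricitinib and 10.71 to 11.27 with vehicle, and the mast cell protease gene Mcpt4 differed by 2.66 (2.10). Of 8 macrophage markers 4 were negative (median 0.17, or -0.12), with summed levels of 13.58 to 14.16 and 13.37 to 14.36 and the complement gene C1qa at 1.80 (0.98). With the 3'/5' gap as a covariate all 8 macrophage markers were negative (median -0.31) and C1qa was at -0.76.

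Among structural cells, 6 of 8 skeletal muscle markers were positive (median 0.81, or 0.85 without vehicle replicate 5, summed level 14.75 to 15.68 with baricitinib and 14.42 to 14.98 with vehicle, Ckm 1.67, or 1.40). So were 6 of 7 fibroblast markers (median 0.37, or 0.32, summed level 14.39 to 15.11 and 14.07 to 14.53, Fbln1 1.97, or 1.09). Keratinocyte markers were mixed, with 3 of 7 negative, or 4 without vehicle replicate 5 (median 0.13, or -0.21, summed level 15.18 to 15.69 and 14.94 to 15.58, Krt15 2.49, or 2.33). Most markers of the B cell and NK lists were dim, such as Klra8 of the NK list at 2.15 to 2.73 log2. With dim probe sets removed, 1 of the 8 B cell markers (difference -1.06) and 1 of the 5 NK markers (-1.94) remained. With all arrays or without vehicle replicate 5, none of the cell type markers passed the adjusted threshold. With array weights markers of every list passed. Lower were 6 B cell, 1 NK, 2 macrophage and 2 keratinocyte markers (all probe sets 10.6%). Higher were 4 mast cell, 5 skeletal muscle, 2 keratinocyte and 3 fibroblast markers (10.9%). Without vehicle replicate 4, 1 macrophage marker was called lower (0.568%). In that setting 1 mast cell, 1 keratinocyte and 1 fibroblast marker were called higher (1.31%). The part of these cell types or of RNA quality in the T cell result was not tested.

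**Figure D5:**
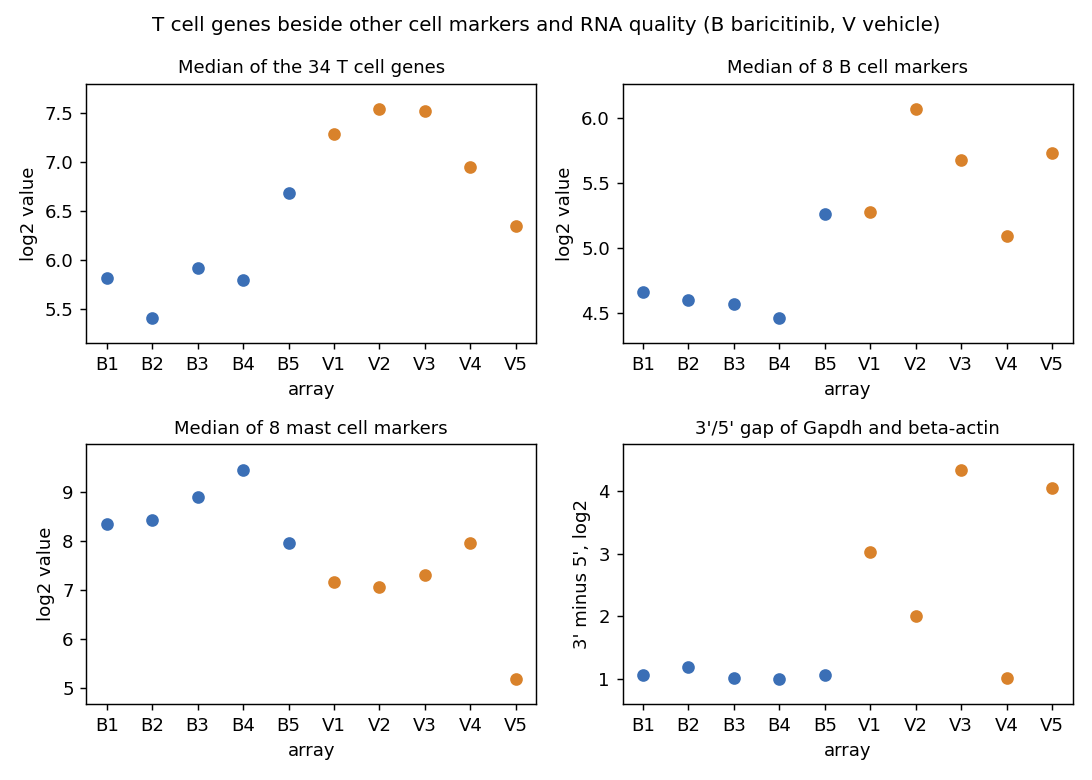
Median log2 level per array (B1 to B5 baricitinib, blue; V1 to V5 vehicle, orange) of the 34 T cell genes, 8 B cell markers and 8 mast cell markers, and the 3'/5' gap of the control transcripts in log2. Vehicle replicate 4 has a gap of 1.01, like the baricitinib arrays, and a T cell median of 6.94, above all 5 of them.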

How the data were processed

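Skin RNA was amplified and biotin labelled for Affymetrix mouse whole-genome arrays. The authors deposited log2 values from RMA, which corrects background, equalises the distribution of the arrays and summarises the probes of a set. The version of RMA is not given in the sources used here. With probe intensities equalised between arrays, a weak array can show as shifts of single genes as well as in its spread. The study's methods removed 1 vehicle array after quality control that the labels do not name, so all 10 arrays were used.

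Of 45101 probe sets 64 controls were left out and 45037 were tested without a filter. The platform annotation gave 1 symbol for 34945, several for 932 and none for 9160, and 1 probe set with 1 symbol stood for each gene. Groups were compared with limma 3.58.1 in R 4.3.3 (lmFit, eBayes, two-sided, Benjamini-Hochberg over all probe sets, threshold 0.05). The fit was also run on simulated data with spreads taken from the baricitinib arrays alone. Those data held no outlying array, so that run cannot show how the fit behaves with vehicle replicate 5. The precision is limited by the number of arrays. Array checks used an exact permutation test, whose smallest p is 0.0079.

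The genes and lists were chosen with earlier results of these data known. Values on every array are given for the CD3 subunits and up to 4 members of each other role group with the largest difference, and for Cd7 and Ptprc, which were added after their values were seen. Of other pathway genes the 4 with the largest difference were named, and of each cell type list 1. Alternatives were each array left out, other normalisations, removal of dim or of _x_at and _s_at probe sets, the mean of a gene's probe sets, trended and robust eBayes, array weights, the replicate number as a block and the 3'/5' gap as a covariate. The last 4 were also combined with the omission of vehicle replicate 5, a choice made after seeing the data.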

Additional observations from a re-analysis of the deposited data

Results flagged for a closer look

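An array lay far from the other 4 of its group, by the gap test of Dixon, in 11 of 70 gene groups tested. The test flags about 1 group in 20 by chance. Genes on the same arrays are not independent, so the count cannot be set against that rate. Of the 11, 7 were vehicle replicate 5, which stood below the other vehicle arrays for Cd3g (6.08 log2, others 9.06 to 10.06), Cd3d (5.57, others 8.46 to 9.32), Cd2 (6.54, others 8.69 to 9.50), Rhoh (4.46, others 6.12 to 6.76) and Lat (6.04, others 8.17 to 8.81) and above them for Cd226 (6.93, others 2.97 to 3.54) and Trat1 (5.05, others 4.29 to 4.36). The other 4 were baricitinib replicate 5, which stood above the other baricitinib arrays for Slamf1 (6.0, others 3.63 to 4.27), Txk (4.14, others 3.38 to 3.54), Lax1 (7.66, others 6.44 to 6.76) and Skap1 (5.93, others 4.72 to 4.93). The 3'/5' gap was 4.06 on vehicle replicate 5 and 1.05 on baricitinib replicate 5, and its part in these values was not tested.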

How the results depend on the processing

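Of the 34 T cell genes 27 kept the sign of their difference under all 24 alternatives, and 7 turned under at least 1 (Bcl11b, Cd27, Cd3g, Prkcq, Rasgrp1, Sh2d1a and Slamf6). The median difference of the 34 stayed negative, between -0.97 and -0.57. The count past the adjusted threshold was 0 with all arrays, 0 to 1 when any 1 array was left out, 21 with array weights (where 10.6% of all probe sets were called lower) and 19 with array weights after vehicle replicate 5 was left out. The count at an unadjusted p of 0.05, 14 with all arrays, was 12 to 21 with 1 array left out, 24 with array weights with or without vehicle replicate 5 (19.2% and 18.5% of all probe sets lower), 8 with the 3'/5' gap as a covariate and 5 after dim probe sets were removed, which left 18 of the genes, 15 of them with a negative difference. Over all 45037 probe sets the count at that p, in either direction, was 6680 with all arrays and 4238 to 12559 with 1 array left out. It was 884 with the gap as a covariate and 4054 of 22518 after dim probe sets were removed. With 1 array left out 29 to 32 genes were negative, and 0 to 10 had groups that did not overlap. There were 10 without baricitinib replicate 5 (all probe sets 3.39% lower) and 4 without vehicle replicate 4 (7.19%). The number without overlap was 1 after median centring or cyclic loess and 4 with the mean of a gene's probe sets, where all probe sets were not counted. It was 6 in each setting without vehicle replicate 5 (4.11%). The gap hardly varied among baricitinib arrays, so the covariate rests on the vehicle arrays, and the causes of these shifts were not tested.

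The labels do not pair the arrays. Deviations from the group means correlated between arrays of the same replicate number with r of -0.227 to 0.088. The vehicle means included vehicle replicate 5, which stood apart, so these correlations cannot decide whether the arrays were paired. With the replicate number as a block 0 genes passed, and 12 were at an unadjusted p of 0.05 (5441 of 45037 probe sets, in either direction). In this setting 31 were negative with a median of -0.74, and 0 did not overlap. With the block and vehicle replicate 5 left out, which also removes baricitinib replicate 5, 9 passed, 24 were lower at an unadjusted p of 0.05 (all probe sets 11.5%) and, with baricitinib replicate 5 counted, 6 did not overlap (4.11%), and Cd3g was at -0.61.

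Reversed values of Cd3g were -0.45 with array weights and -1.20 with the gap as a covariate, and without vehicle replicate 5 they were -0.41 (also with trended eBayes), -0.98 with the gap and -0.52 with array weights. With the gap as a covariate Slamf6 was 0.0558, Ptpn6 -0.57, Bcl10 -0.29, Ms4a1 0.0332 and C1qa -0.76, and with vehicle replicate 5 left out as well Rasgrp1 was 0.0281, Ptpn6 -0.29, Bcl10 -0.0823 and C1qa -0.57. Prkcq was -0.10 after cyclic loess, Bcl11b 0.18 as the mean of its probe sets, and Sh2d1a 0.0015 with array weights without vehicle replicate 5. With 1 array left out Cd3g ranged from -0.41 to 0.74, Cd27 from -0.67 to 0.0432 and Rasgrp1 from -0.30 to 0.16.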
